A study of Rattus norvegicus with 8 samples.

Results

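The insulin-like growth factor (IGF) family was examined in cultured fetal rat testes exposed to mono-(2-ethylhexyl) phthalate (MEHP), the active breakdown product of a widely used plasticizer. Probes were taken by gene name, from a list of members chosen with earlier results of these data known. It held the ligands Igf1 and Igf2, the receptors Igf1r and Igf2r, and the binding proteins Igfbp2, Igfbp3, Igfbp4, Igfbp5, Igfbp6 and Igfbp7. Of these 10 genes, 9 had a probe of that name among the 35581 gene names of the array, with 15 probes in all. No probe carried the name Igfbp7, so this gene was not analysed here. After the filter on dim probes, 9 probes of 7 genes were tested at 10 µM and 11 probes of 9 genes were compared at 1 µM.

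In 2 of 3 testes at 10 µM, the brightest probes of Igf2r, Igfbp3 and Igfbp5 lay above the vehicle pool in every hybridization. They averaged 2.74-fold, 2.40-fold and 2.90-fold, but a second Igfbp3 probe averaged 1.46-fold and lay near the pool in testis 3. The brightest probes of Igf1 and Igfbp4 also lay above the pool in every one, at 1.48-fold and 1.22-fold. This held for 6 of the 9 tested probes, against 19.1% of all tested probes. Igfbp2 lay below the pool in every hybridization of these 2 testes. Igf2 lay near the pool in testis 1 (mean log2 ratio 0.03) and below it in testis 3 (-0.56). The third, testis 2, gave an MEHP signal near background and mean ratios below 0 for all 9 tested probes. With the 3 testes together, none of the 9 probes differed from the vehicle pool beyond the spread between testes.

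Explants were exposed for 72 h to MEHP dissolved in DMSO, with 1 testis at 1 µM and 3 at 10 µM, and each was hybridized on 2 Agilent Whole Rat Genome arrays against RNA pooled from 3 testes given DMSO alone. The testes came from Sprague-Dawley rat fetuses at mid-gestation and were cultured whole, so the RNA came from all their cell types and fewer cells of a type cannot be told apart from less RNA per cell. A single control pool served all 8 arrays, so no test takes in how control testes vary, and the value at 1 µM comes from 1 testis. By the study's methods the 3 testes at 10 µM came from different litters, as did those of the control pool, which the sample labels do not state.

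IGF-I and IGF-II are secreted growth factors that signal through the type 1 receptor, a tyrosine kinase related to the insulin receptor. The type 2 receptor, which also carries mannose 6-phosphate tagged enzymes, takes IGF-II into the cell for degradation, and the binding proteins hold the ligands outside cells and set how much reaches the receptors. In the fetal gonad, signalling through the insulin and IGF receptors is needed for testis formation, and Igf2 and Igf2r are classical imprinted genes.

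The values are log2 ratios of MEHP over vehicle, from the deposited ratio of the 2 dyes on each array. Their direction is likely rather than settled. By the channel labels MEHP was on Cy3 throughout, but the study's methods describe an exchange of dyes in 1 array of each pair and do not name it. MEHP was therefore taken as Cy3 in the first hybridization and as Cy5 in the repeat. A first set held the probes with a spot well above background in at least 1 dye on each of the 8 arrays. Over this set, the red over green ratios of the 2 hybridizations of a testis had r from -0.82 to -0.49. These r are across probes, which are no independent replicates. Only 62 probes were well above background in both dyes on all 6 arrays at 10 µM. Over all tested probes r lay between -0.53 and -0.23 at 10 µM, but was 0.16 at 1 µM. The red dye was the more sensitive one, with 21.4% to 31.9% of spots well above background against 7.80% to 15.4% for green on the arrays other than those of testis 2. On testis 2, green reached 0.249% in the first hybridization and red reached 1.54% in the repeat, while the opposite dye reached 22.9% and 9.23%.

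**Figure D1:**
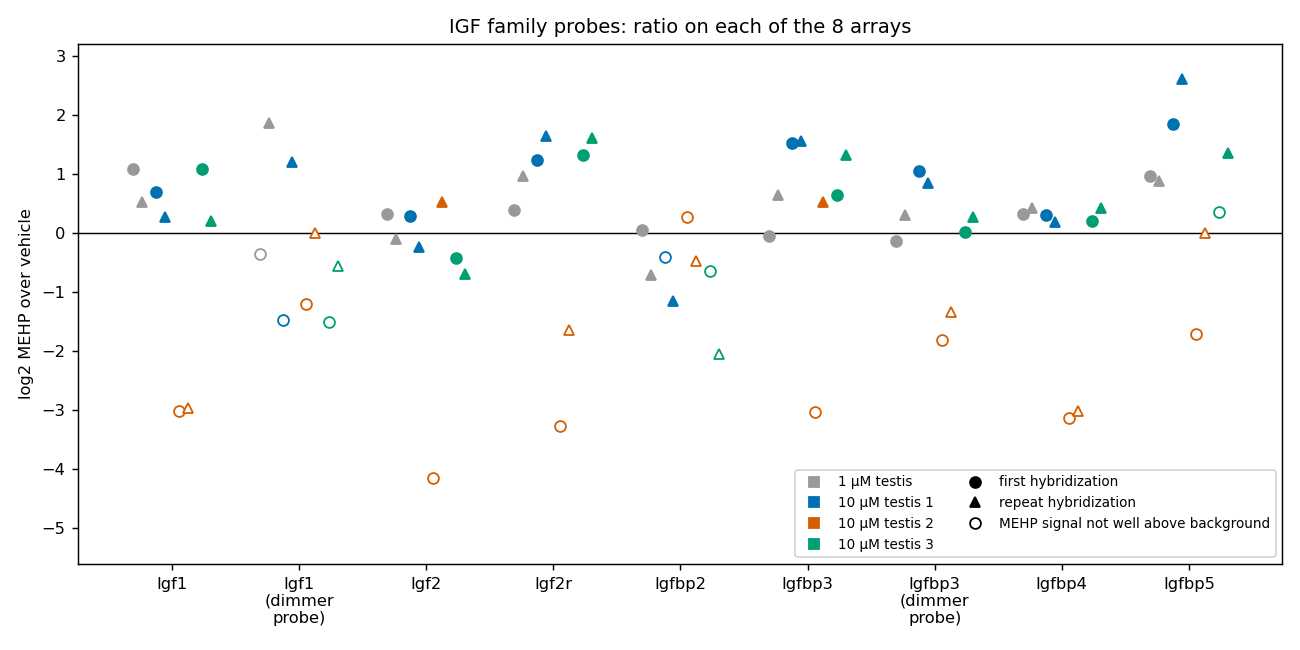
Log2 MEHP over vehicle (y axis) of the 9 tested probes (x axis) on each of the 8 arrays, with circles for the first and triangles for the repeat hybridization, colours for the testes, and open symbols where the MEHP signal was not well above background. For Igf2r the 4 ratios of testes 1 and 3 lie between 1.23 and 1.65, while those of testis 2 lie at -3.27 and -1.64.

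Among the ligands, Igf2 was measured well above background in the vehicle channel on all 8 arrays, at 6608 to 44707 signal units with a median of 26724. At 10 µM its log2 ratio was 0.29 and -0.24 in the 2 hybridizations of testis 1, -4.15 and 0.53 in those of testis 2, and -0.42 and -0.69 in those of testis 3. The ratios of testis 1 lay on both sides of 0, those of testis 3 were both below it, and those of testis 2 were far apart. In the first hybridization of testis 2 the MEHP signal was 1359 units and not well above background, whereas in the repeat it was 9526 units against 6608 units for vehicle. The mean over the 3 testes was -0.78 ± 0.94 (SD, n = 3), with an adjusted p of 0.48 by limma. The testis at 1 µM gave 0.32 and -0.11, so the 2 hybridizations differed in sign and the level stayed close to that of the pool.

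Igf1 was represented by 4 probes. The brightest had vehicle signals of 1411 to 6022 units. At 10 µM its log2 ratio was 0.70 and 0.27 in testis 1, -3.01 and -2.96 in testis 2, and 1.08 and 0.20 in testis 3. Testes 1 and 3 were above the pool in all 4 hybridizations and testis 2 was below it in both, where the MEHP signal was not well above background. The mean was -0.62 ± 2.05 (SD, n = 3), with an adjusted p of 0.607 by limma, and 0.56 without testis 2 (limma adjusted p = 0.263). At 1 µM the ratios were 1.08 and 0.52, of which the second fell short of the 1.5-fold limit of 0.585 on the log2 scale.

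The next probe of Igf1, with a median vehicle signal of 221 units, gave ratios that went with the dye. Its red signal exceeded the green on 6 of the 8 arrays and fell below it on 1, and the remaining array had no signal above the background error in either dye. Its log2 ratio of MEHP over vehicle was below 0 in all 4 first hybridizations, at -0.36 at 1 µM and -1.48, -1.19 and -1.51 at 10 µM. In the repeats it was 1.86 at 1 µM and 1.21, 0 and -0.55 at 10 µM. The averaged ratios at 10 µM were -0.14, -0.60 and -1.03. Their mean was -0.59 ± 0.45 (SD, n = 3; adjusted p by limma, 0.616). The remaining 2 Igf1 probes were not well above background in any channel on any array, and one of them was printed as 10 spots.

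Of the receptors, Igf2r was well above background in the vehicle channel on all 8 arrays, at 1309 to 8511 units. At 10 µM the log2 ratio was 1.23 and 1.65 in testis 1, -3.27 and -1.64 in testis 2, and 1.32 and 1.62 in testis 3. The 4 ratios of testes 1 and 3 lay within a narrow range, with MEHP signals of 9590 to 18720 units, and neither hybridization of testis 2 had an MEHP signal well above background. The mean over the 3 testes was 0.15 ± 2.26 (SD, n = 3), with an adjusted p of 0.93 by limma. In testes 1 and 3 alone the mean was 1.45 ± 0.02 (SD, n = 2), a 2.74-fold higher level (limma adjusted p = 0.0179). Exposure to 1 µM gave 0.39 and 0.96, both above 0, with a mean of 1.60-fold, but the first was under the 1.5-fold limit.

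Igf1r, the signalling receptor, was at the limit of detection. Its single probe, printed as 10 spots, had a median vehicle signal of 105 units, was well above background in the vehicle channel on none of the 8 arrays and in the MEHP channel on 1, the repeat at 1 µM. At 1 µM the ratios were -0.64 and 0.81, past the 1.5-fold limit in opposite directions. The probe was not tested at 10 µM, where the ratios averaged 0.69, 0.15 and -0.43 in testes 1, 2 and 3. Within an array, the SD of the log2 ratio between its 10 spots ran from 0.33 to 0.92.

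**Figure D2:**
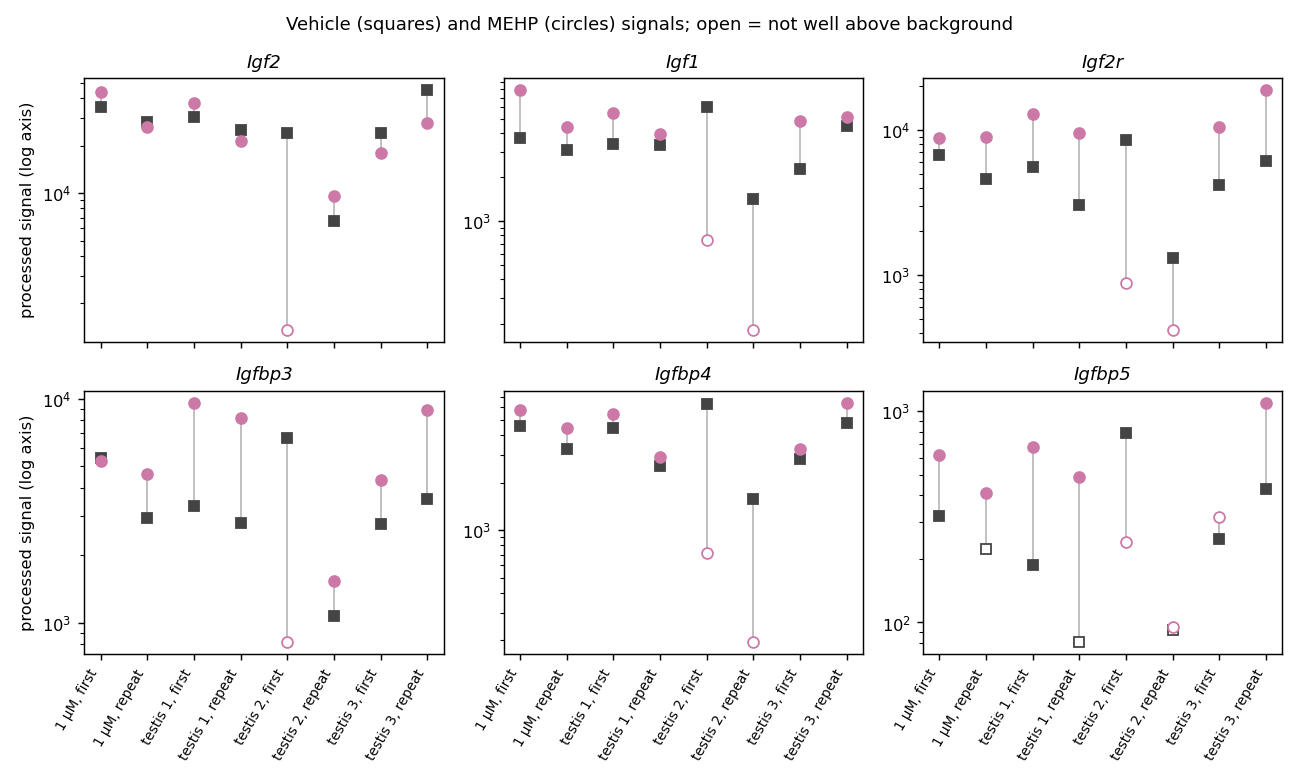
Processed signal (y axis, log scale, arbitrary units) of the vehicle pool (squares) and of MEHP-exposed testes (circles) for the brightest probe of 6 genes on the 8 arrays (x axis), with open symbols where a signal was not well above background. MEHP signals of Igf2r, Igfbp3 and Igfbp5 lie above those of the pool in all 4 hybridizations of testes 1 and 3, while both MEHP signals of Igf1, Igf2r, Igfbp4 and Igfbp5 on testis 2 are open.

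The binding proteins differed among themselves. Igfbp3, the main carrier of IGFs in the circulation after birth, had 2 probes, both well above background in the vehicle channel on all 8 arrays. On the brighter one, with vehicle signals of 1072 to 6676 units, the log2 ratio at 10 µM was 1.53 and 1.55 in testis 1, -3.03 and 0.53 in testis 2, and 0.64 and 1.32 in testis 3. It was above 0 in 5 of the 6 hybridizations, and the exception was an array on which the MEHP signal was not well above background. The mean was 0.42 ± 1.48 (SD, n = 3), with an adjusted p of 0.753 by limma, and in testes 1 and 3 alone it was 1.26 ± 0.39 (SD, n = 2), a 2.40-fold higher level (limma adjusted p = 0.0305). At 1 µM the ratios were -0.04 and 0.65.

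The second Igfbp3 probe was printed as 10 spots, which gave a measure of error within the array. Its log2 ratio was 1.04 and 0.85 in testis 1, -1.81 and -1.33 in testis 2, and 0.01 and 0.27 in testis 3. In testis 1 both were clear of the SD between spots of 0.09 and 0.29, and in testis 3 the first, with an SD of 0.11, was not. In testis 2 the SD between spots rose to 0.78 and 0.92. The 2 probes thus ran in the same order over the testes but at different sizes, and the second did not pass the test without testis 2 (mean 0.54; limma adjusted p = 0.304). At 1 µM its ratios were -0.14 and 0.30, with SDs between spots of 0.09 and 0.10. Both exceeded that SD but in opposite directions, so the SD between spots does not cover the difference between hybridizations.

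**Figure D3:**
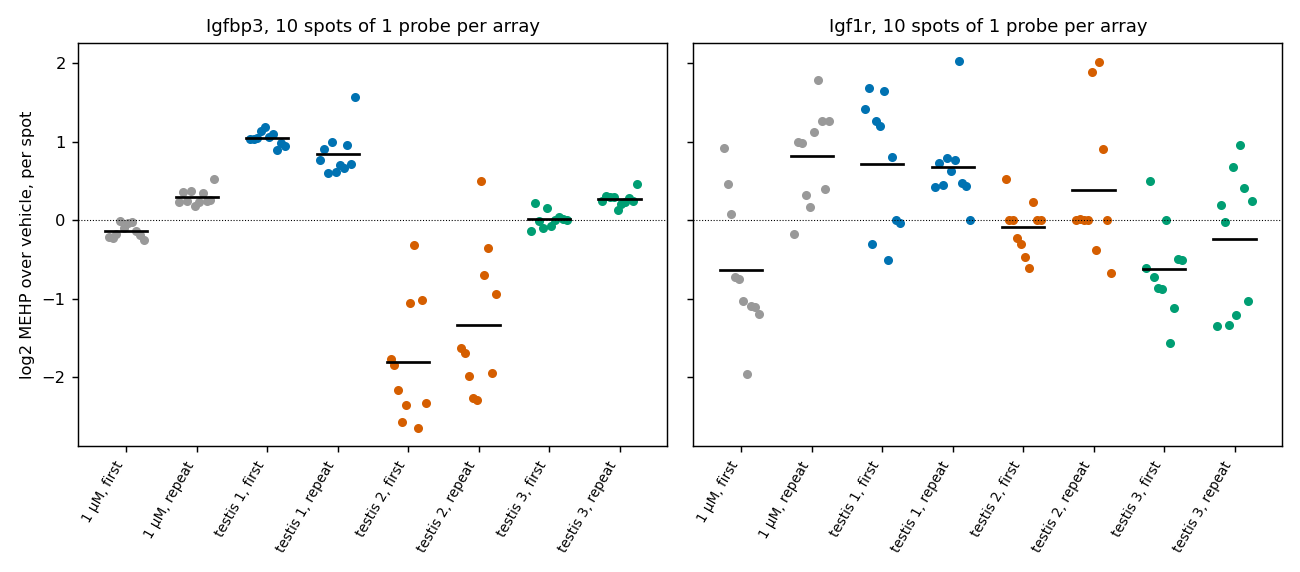
Log2 MEHP over vehicle of each of the 10 spots of 1 probe (y axis) on the 8 arrays (x axis), for Igfbp3 on the left and Igf1r on the right, with a black line at the mean of each array and colours for the testes. The spots of Igfbp3 lie close together except on testis 2, where their SD is 0.78 and 0.92, and those of the dim Igf1r probe scatter widely on all arrays.

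Igfbp5, a binding protein held in the extracellular matrix, was dimmer, with a median vehicle signal of 235 units and 5 arrays on which the vehicle signal was well above background. Its log2 ratio at 10 µM was 1.85 and 2.60 in testis 1, -1.70 and 0 in testis 2, and 0.35 and 1.35 in testis 3. Testes 1 and 3 were above the pool in all 4 hybridizations, but 2 of these had a signal not well above background. These were the vehicle signal in the repeat of testis 1 (81 units) and the MEHP signal in the first hybridization of testis 3 (315 units). The 0 in testis 2 stands for an array on which neither dye gave a signal above the background error. The mean was 0.74 ± 1.54 (SD, n = 3), with an adjusted p of 0.512 by limma, and in testes 1 and 3 alone it was 1.54 ± 0.97 (SD, n = 2), a 2.90-fold higher level (limma adjusted p = 0.024). Both ratios at 1 µM were also above 0, at 0.96 and 0.88, but the vehicle signal in the repeat (222 units) was not well above background. This probe carried the name Igfbp5 on the array, but its accession had no match in a gene table of GRCr8. A second Igfbp5 probe, whose accession did match, was not well above background in any channel on any array.

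Igfbp4 mostly restrains IGF action. Its brighter probe had vehicle signals of 1565 to 6333 units. The log2 ratio at 10 µM was 0.31 and 0.19 in testis 1, -3.14 and -3.01 in testis 2, and 0.20 and 0.42 in testis 3. Over the testes it averaged -0.84 ± 1.94 (SD, n = 3), with an adjusted p of 0.454 by limma, and 0.28 without testis 2 (limma adjusted p = 0.586). Ratios of 0.33 and 0.43 were measured at 1 µM. Its other probe was not well above background in any channel on any array.

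Igfbp2, a binding protein of fetal tissues, was the member with the most hybridizations below the pool. The vehicle signal, of 131 to 718 units, cleared background well on 6 arrays and the MEHP signal on 3. At 10 µM the log2 ratio was -0.41 and -1.14 in testis 1, 0.27 and -0.47 in testis 2, and -0.64 and -2.04 in testis 3. It was below 0 in 5 of the 6 hybridizations and lower in the repeat than in the first hybridization of every testis. The mean was -0.74 ± 0.62 (SD, n = 3), with an adjusted p of 0.507 by limma, and -1.06 without testis 2 (limma adjusted p = 0.0545). At 1 µM the ratios were 0.04 and -0.71.

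Igfbp6, which prefers IGF-II, had a vehicle signal well above background on 2 arrays and an MEHP signal on 1, and was not tested at 10 µM. Its averaged log2 ratios were 0.07, 0.23 and 0.20 in testes 1, 2 and 3, and at 1 µM it gave 0.57 and 0.23.

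**Figure D4:**
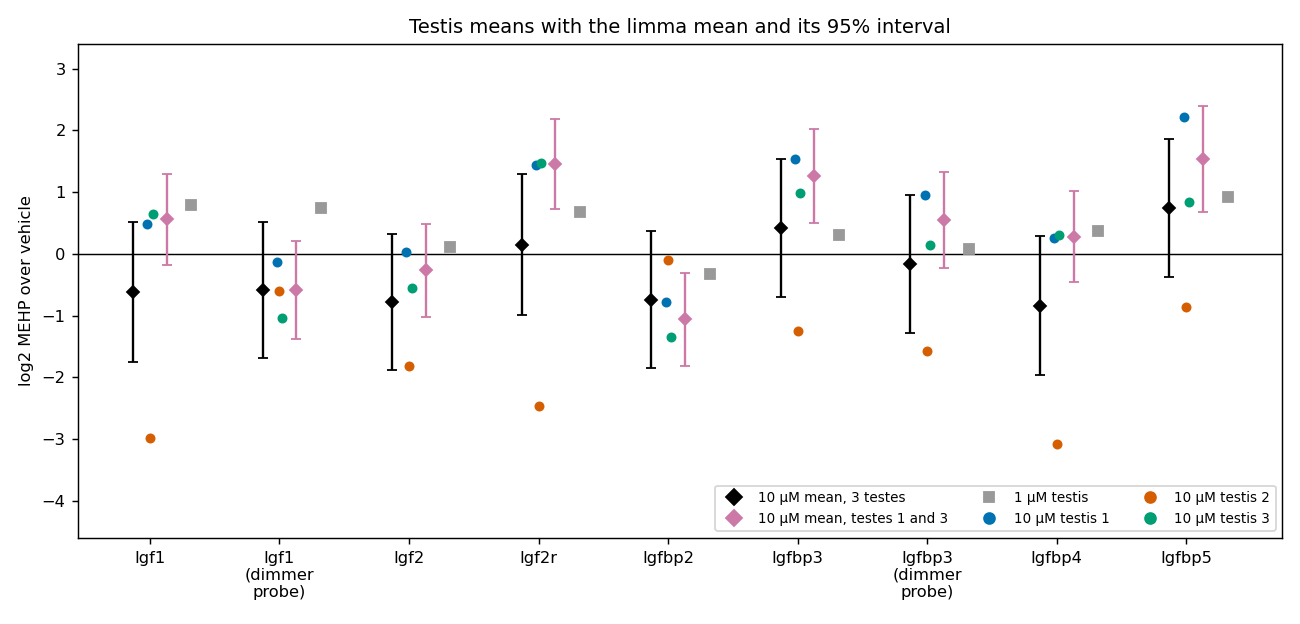
Log2 MEHP over vehicle (y axis) of the 9 tested probes (x axis), with circles for the mean of each testis at 10 µM, squares for the testis at 1 µM, and diamonds with bars for the limma mean and its 95% interval over the 3 testes (black) and over testes 1 and 3 (pink). All black intervals cross 0, and the pink intervals of Igf2r, Igfbp2, Igfbp5 and the brighter Igfbp3 probe do not, whereas that of the second Igfbp3 probe does.

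Read as a group at 10 µM, 0 of the 9 member probes reached an adjusted p under 0.05 by limma over all 3 testes, and 0 had an unadjusted p under 0.05, where 2.24% of the 9913 tested probes were called in either direction. Medians of the log2 ratio for the 9 probes were 0.48, -1.57 and 0.31 for testes 1, 2 and 3, beside 0.09, -1.13 and -0.20 over all tested probes. Testis 2 had the lowest median on both counts. It shared a slide with testis 1, and the cause of its low median was not tested.

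Above 0 in all 4 hybridizations of testes 1 and 3 were 6 of the 9 probes, against 19.1% of all tested probes. These were the brightest probes of Igf1, Igf2r, Igfbp3, Igfbp4 and Igfbp5 and the second probe of Igfbp3, and all 6 lay below 0 in testis 2, a pattern that 31.7% of all tested probes shared in their testis means. With testis 2 left out, 3 of the 9 probes passed as higher, those of Igf2r, Igfbp3 and Igfbp5, against 7.45% of all tested probes, and 0 passed as lower, against 9.85%. These calls rest on 2 testes. When the control pool was counted as 1 sample that varies like a treated testis, none of the 3 passed, with limma adjusted p between 0.463 and 0.493.

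Marker genes of the cell types of the testis were measured beside the family, each by its brightest probe. The vehicle channel was well above background on at least 4 of the 8 arrays for 6 of 7 Sertoli cell markers and 4 of 6 Leydig cell markers, but for none of the 3 germ cell markers on the array. The summed level of the endothelial markers lay above the pool in testes 1 and 3, by 0.43 to 1.1 and by 0.68 to 0.84 on the log2 scale over their hybridizations. Of its 5 genes Kdr carried a vehicle signal well above background and the other 4, Cdh5, Tek, Tie1 and Vwf, did not on any array. The summed peritubular markers lay above it too, by 0.50 to 0.64 in testis 1 and by 0.16 to 0.29 in testis 3, but the 2 of their 4 genes with a vehicle signal well above background on at least 4 arrays went opposite ways. Des was at 0.69 and 0.39 in testes 1 and 3, and Tagln at -1.22 and -1.20, which passed as lower without testis 2 (limma adjusted p = 0.0321). The summed Leydig markers lay below the pool, at -0.59 and -0.54 in testis 1 and at -1.52 and -1.83 in testis 3, although Star alone stood at 1.27 in testis 1. The summed Sertoli markers were at -0.17 and 0.005 in testis 1 and at -0.99 and -0.69 in testis 3. Sox9 went the other way, at 1.099 and 0.41 in testes 1 and 3, and did not pass without testis 2 (limma adjusted p = 0.152). The other tested Sertoli markers had averaged ratios below 0 in both of these testes. Over all 3 testes, Cyp17a1 was the only marker to pass, as lower, with a mean of -1.96 (limma adjusted p = 0.0394). Without testis 2, 2 Leydig genes (Cyp17a1 and Insl3) and 2 Sertoli genes (Dhh and Inhbb) passed as lower. None of the 4 leukocyte and 3 mesonephric epithelium markers reached that level on 4 arrays. The part of these shifts in the ratios of Igf2r, Igfbp3 and Igfbp5 was not tested.

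The stretches before the RefSeq start sites of Igf2r, Igfbp3 and Igfbp5 are shown because these 3 genes passed the test as higher when testis 2 was left out. All 10 family members matched a RefSeq promoter entry by symbol. Each line holds the 250 bases before the start site on assembly GRCr8, in the direction of transcription, with capitals at letters that match a searched motif. Igf2r lies on the plus strand at chr1:50526628-50526877, Igfbp3 on the minus strand at chr14:86277945-86278194 and Igfbp5 on the minus strand at chr9:81914188-81914437.
Igf2r: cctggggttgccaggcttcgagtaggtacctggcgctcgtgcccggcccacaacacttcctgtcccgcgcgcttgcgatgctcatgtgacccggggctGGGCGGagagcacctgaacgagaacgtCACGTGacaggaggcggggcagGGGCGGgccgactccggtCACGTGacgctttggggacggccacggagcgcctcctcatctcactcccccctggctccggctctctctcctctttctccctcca
Igfbp3: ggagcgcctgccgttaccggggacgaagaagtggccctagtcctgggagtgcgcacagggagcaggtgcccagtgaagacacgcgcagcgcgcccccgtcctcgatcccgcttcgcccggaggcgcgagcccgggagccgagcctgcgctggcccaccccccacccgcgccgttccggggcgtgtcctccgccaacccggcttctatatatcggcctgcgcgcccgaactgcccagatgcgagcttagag
Igfbp5: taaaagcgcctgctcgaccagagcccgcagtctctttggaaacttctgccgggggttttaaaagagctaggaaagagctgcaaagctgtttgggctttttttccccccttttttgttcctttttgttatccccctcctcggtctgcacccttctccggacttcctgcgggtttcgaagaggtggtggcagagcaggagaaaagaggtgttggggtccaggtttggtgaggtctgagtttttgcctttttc
The motifs, searched on both strands, were the GC box GGGCGG, the TATA box TATAAA, the CCAAT box CCAAT, the E box CACGTG, the nuclear receptor core site AGGTCA, and the direct repeat of that core with 1 base between, which is bound by peroxisome proliferator-activated receptors and holds the core site within it. The Igf2r stretch held the GC box at 152 and 103 bases and the E box at 125 and 85 bases before the start site. Of 33469 promoters of the same length, 30.5% held the GC box and 5.59% the E box. None of the other motifs had an exact match in the Igf2r stretch, and none of the 6 in those of Igfbp3 and Igfbp5. Variant forms of the motifs were not searched for. Of all these promoters, 12.9% held the TATA box, 34.0% the CCAAT box, 14.1% the core site and 0.0508% the direct repeat. The base composition differed, with 68.0% G or C for Igf2r, 71.6% for Igfbp3 and 51.6% for Igfbp5, beside a median of 51.2%.

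At 1 µM, a single testis was measured and no test was made. A probe was called where both hybridizations passed 1.5-fold in the same direction. This held for 1 of the 11 member probes, that of Igfbp5, which was 1.90-fold higher, where 4.05% of 13174 probes were called as higher. Its vehicle signal in the repeat was not well above background. No member probe was called as lower, against 2.96%. The median of the 11 probes was 0.38, beside 0.02 over all probes compared. Over the whole array, 2541 probes passed the limit in opposite directions in the 2 hybridizations, more than the 924 that passed it in the same direction.

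The doses were compared by limma over the 4 testes. The fit assumes that the testis at 1 µM varies as the others do, and both doses share the control pool. Of 9 member probes, 0 passed an adjusted p of 0.05 and 0 had an unadjusted p under 0.05, and over all 9785 probes 0% were called and 26 had an unadjusted p under 0.05. The intervals were wide. For Igf2r the level at 10 µM minus that at 1 µM was -0.53, with a 95% interval from -2.75 to 1.70, and for Igfbp5 it was -0.18, from -2.40 to 2.04. Testis 3 and the testis at 1 µM shared a slide, and on it the difference was 0.79 for Igf2r. It was 0.68 for the brighter and 0.058 for the second Igfbp3 probe, and -0.16 for the brightest and -1.78 for the second Igf1 probe. For Igf2 it was -0.66, for Igfbp2 -1.01, for Igfbp4 -0.068 and for Igfbp5 -0.075.

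Other genes of the pathway were counted from a list of 53, each by its brightest probe, of which 49 were on the array and 16 passed the filter on dim probes at 10 µM. None passed the adjusted threshold in either direction. Of the carriers and proteases, only the IGFBP protease gene Pappa was tested, with a mean of -0.44 (limma adjusted p = 0.735). Of the insulin ligand, receptor and adaptor genes, 3 of 12 were tested, and the adaptor genes Grb2, Sos1 and Irs2 had means of -0.85, -0.60 and 0.02. Neither the insulin receptor gene Insr nor its relative Insrr was well above background in any channel.

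Of the genes of the phosphatidylinositol 3-kinase, AKT and mTOR pathway, 7 of 19 were tested. Rheb, the small GTPase that switches on mTOR, had the lowest p, lying at -0.54, -2.59 and -1.69 in testes 1, 2 and 3 (mean -1.61; limma adjusted p = 0.0904). Rps6kb1 and Eif4ebp1, both mTOR targets, had means of -0.71 and -0.72. Of the RAS and MAP kinase genes, 4 of 6 were tested. At 1 µM, 22 genes of the list were compared, of which 1 passed 1.5-fold in both hybridizations. This was Pdpk1, the kinase that activates AKT, higher at 0.79 and 1.05 and named after its values were seen.

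Of the growth hormone axis, Stat5a was tested, at 0.55, -0.90 and 1.42 in testes 1, 2 and 3. The growth hormone receptor Ghr and the IGF2 mRNA-binding protein genes Igf2bp1 and Igf2bp3 were not well above background on any array.

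The probes most like Igf2 in their 4 testis ratios were sought among the 9785 probes in the comparison of doses. The nearest were Zfyve21_predicted, with a root mean square difference of 0.05 on the log2 scale, RGD1560258_predicted at 0.07 and a transcript without a gene symbol at 0.07, beside a median of 0.75 over all probes. This likeness was measured over 4 testes and is a description.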

How the data were processed

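RNA from cultured fetal rat testes (72 h in culture) was hybridized on 8 two-colour arrays, described in the report above. Image extraction by the authors used Agilent Feature Extraction 9.1, per the labels. The authors deposited, for each spot, a log10 ratio (red over green, background-subtracted and dye-normalized) with its error, and the intensity of each dye. They also deposited flags for outlier spots, surrogate values and spots well above background, which are other values. A list of fold changes and p-values for each dose, from the authors' own comparison, was not used.

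Ratios were converted to log2. Control and outlier spots were left out, spots of a probe were averaged, and the 2 hybridizations of a testis were averaged into 1 replicate. A probe was tested if 1 of its channels was well above background on at least 3 of 6 arrays at 10 µM, or 1 of 2 at 1 µM, with a ratio on all of them. No member spot was saturated. Moderated linear models (limma, version 3.58.1, under R, version 4.3.3) compared the testes at 10 µM with 0. P-values were adjusted by the Benjamini-Hochberg method across the probes tested, and the fits were tested on simulated data. The package data.table was version 1.17.8, and matplotlib, used for plots, was version 3.10.9.

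All member probes were named, and the brightest stood for its gene. Other pathway genes were counted by group, with at most 3 named by the lowest p (the values of 1 of them are not reported here), and the 3 probes nearest to Igf2 were sought. The members and lists were chosen with earlier results of these data known. Names are those of the array. Of the 15 member probes, 13 matched the same symbol by accession in a gene table of GRCr8. The tested Igfbp5 probe, which carried all calls of that gene, and the second Igf1 probe had no match there. Arrays carry no counts, so their number limits the precision. The alternatives were another background correction and dye normalization, array centring, other filters, either hybridization alone, other dyes, testes left out, the testis or slide as a block, other variance priors, a varying pool, error weights and a 2-fold limit.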

Additional observations from a re-analysis of the deposited data

Results flagged for a closer look

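The second Igf1 probe was singled out because its averaged ratio was above 0 in the testis at 1 µM and below 0 in all 3 testes at 10 µM. The difference, 10 µM minus 1 µM, was -1.34 on the log2 scale, with a 95% interval from -3.55 to 0.87 (limma adjusted p = 1). The probe's ratios changed with the dye between the 2 hybridizations, and the cause was not tested. The brightest Igf1 probe was above 0 at 1 µM and in testes 1 and 3. No group held enough samples for a search for outlying samples.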

How the results depend on the processing

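At 10 µM no member probe passed under any alternative other than those that left out testis 2 and the error-weighted mean of the 6 arrays. That mean takes arrays as replicates and called 6 of the 9 member probes (Igf1, Igf2r, Igfbp2, Igfbp5 and both Igfbp3 probes). It also called 5701 of all 9913 tested probes. The study's own selection used an error-weighted mean too, at another p limit. Leaving out 1 testis gave 0 to 3 called members, and 0 to 1715 of all probes against 222 with all 3 testes. Without testis 2, a varying pool gave 0 members and 0 of all probes, and centring, with 2720 of all probes, gave 4 members (Igf2r, Igfbp2, Igfbp3 and Igfbp5). Both settings were chosen after seeing the data. Over all probes the count was 106 with array centring, 7 with the slide as a block, 740 with a trended robust prior, 5701 with error weights, 0 with normexp and loess, no filter, the first hybridization alone, MEHP on Cy3 throughout, the testis as a random block or a varying pool, and 0 of the 62 probes, none of them a member, left by the filter on both channels.

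The means that changed sign were those of Igf1 at 0.28 and Igfbp4 at 0.10 with normexp and loess, at 0.30 and 0.038 with error weights, and at 0.65 and 0.37 without testis 2 and with centring. With the varying pool and no testis 2 they were 0.56 and 0.28. Igf2r at -0.24 and Igfbp3 at -0.29 turned in the first hybridization alone. With MEHP on Cy3 throughout, Igf1 was 0.21, Igf2r -0.39, Igfbp2 0.48, Igfbp3 -0.71 and Igfbp5 -0.58. With 1 testis left out, Igf1 ran from -1.25 to 0.56, Igf2r from -0.51 to 1.45, Igfbp3 from -0.13 to 1.26, Igfbp4 from -1.41 to 0.28 and Igfbp5 from -0.002 to 1.54. The mean of Igf2 stayed below 0 in all of these.

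At 1 µM, where 1 member and 924 probes were called, the counts were 0 and 66 with normexp and loess, 0 and 307 with both channels required, 0 and 226 at 2-fold, 3 and 5288 in the first and 6 and 6275 in the repeat hybridization alone, and 1 (Igf1r in place of Igfbp5) and 2541 with MEHP on Cy3 throughout. No member passed the test between the doses with either other processing of the ratios (normexp and loess, centring), without the filter, with outlier spots kept, in either hybridization alone, with MEHP on Cy3 throughout or with 1 testis left out, and no other alternative gave a value for members. Over all probes that count was 0, except for 1829 without the filter and 1 in the repeat hybridization alone. The causes of these changes were not tested. No paired analysis was possible because the single testis at 1 µM leaves no pairs between the doses.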
